A study of Mus musculus with 8 samples.

Results

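Wnt ligand genes encode secreted, lipid-modified glycoproteins, and 10 of them were examined for their place in the chromatin of mouse ES cells and of the epithelium and fiber cells of the lens. They were Wnt1, Wnt2b, Wnt3, Wnt3a, Wnt5a, Wnt5b, Wnt6, Wnt7b, Wnt10a and Wnt10b, out of 21883 protein-coding genes with a position on chromosomes 1 to 19, X and Y. The genes were chosen by name, with earlier results of these data known, and are not all of the Wnt ligand genes. Each was widened by 5 kb on both sides of its gene body in the mouse genome build GRCm38 (mm10), to which all positions refer. A chromatin loop was counted at a gene when either of its anchors overlapped this window, a topologically associating domain (TAD) when it touched the window, and a CTCF peak when it lay in it by at least 1 bp.

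Wnt ligands bind Frizzled receptors and the co-receptors Lrp5 and Lrp6, and in the canonical pathway this stabilises β-catenin, which then acts with Tcf and Lef factors in the nucleus. Wnt5a and Wnt5b are best known for signalling without β-catenin, through receptors such as Ror2 and Ryk, in cell polarity and movement. In the lens, Wnt signalling acts in the maintenance of the epithelium and in the alignment of fiber cells. A chromatin loop is a pair of distant sites that meet more often than their surroundings, TADs are stretches of chromosome that contact themselves, and CTCF is the DNA-binding protein found at many borders and anchors of both.

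Hi-C, which counts ligated pairs of DNA fragments as contacts, was available for mouse ES cells and for 2 lens cell types. The ES cells were v6.5, a male line of mixed strain background grown without feeders and with LIF. Epithelium and fiber cells (lens fibers) were dissected from the lenses of CD-1 mice at postnatal day 0.5, whose sex is not given. Both replicates of a cell type, each of 30 lens samples or about 2000000 ES cells crosslinked in 2% formaldehyde, had been merged into 1 list of loops and 1 of TADs. CTCF ChIP-seq was available for these 2 lens cell types from CD-1 mice of the same age, with 1 peak list each and none for ES cells. The study asked how chromatin is reorganised between ES cells and the differentiating lens. Strain, culture, tissue handling and cell type change together between ES cells and lens, and sex may differ too, so they cannot be told apart. Dissected tissue can carry some cells of the neighbouring layer. No expression was analysed here, so the labelled cell types were not checked against markers.

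The lists held 8459 loops for ES cells, 8005 for lens epithelium and 7682 for lens fibers, with median observed counts of 56, 51 and 63 contacts per loop. The total depth of the maps is not given in these lists. The study reports similar total contacts for all cell types, with a far lower share between chromosomes in ES cells than in the lens. Whether this difference bears on the number of loops listed was not tested. With 1 merged list per cell type there were no replicate values, so no test between cell types was made, and all intervals below are 95% intervals for counting error only. A gene without a listed loop is a gene at which the caller passed none, not a gene without contacts.

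Loops were listed at 9 of 10 Wnt genes in ES cells, at 7 in the epithelium and at 5 in lens fibers. Of all protein-coding genes, 36.9%, 35.8% and 34.1% had a loop in the same lists. The 9 genes in ES cells were all except Wnt3, the 7 in lens epithelium were Wnt1, Wnt2b, Wnt5a, Wnt5b, Wnt6, Wnt7b and Wnt10b, and the 5 in lens fiber cells were Wnt2b, Wnt3a, Wnt5a, Wnt5b and Wnt7b. The median length of the Wnt genes was 26.9 kb against 17.2 kb for all protein-coding genes, and a longer gene gives a wider window. Wnt1, Wnt2b, Wnt10a and Wnt10b were shorter than 17.2 kb. In a fixed window of 20 kb around the middle of each gene, 8, 6 and 4 Wnt genes had a loop, and 23.5%, 21.8% and 20.7% of all genes did. With loops of anchors up to 10 kb, the counts were 9, 4 and 4, and 30.7%, 24.3% and 23.1% of all genes had one. Loops in all 3 lists were found at 4 Wnt genes, Wnt2b, Wnt5a, Wnt5b and Wnt7b, against 21.1% of all genes. Wnt10a was the single gene with loops in ES cells and in neither lens list, which is 1 of 10 and close to the 9.41% of all genes with that pattern.

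Counted once each, 26 loops in ES cells, 14 in the epithelium and 14 in lens fibers had an anchor at a Wnt gene. Wnt5a had 7 loops in ES cells, 3 in the epithelium and 4 in lens fibers, and only 0.434% of all protein-coding genes had at least 7 loops in the ES cell list. Wnt5b had 4 loops in each list. Wnt7b had 3, 4 and 4. At these 3 genes the lens lists thus held between 3 and 4 loops each. At least 3 loops were listed at 6.29%, 5.12% and 4.71% of all protein-coding genes in ES cells, the epithelium and lens fibers. At least 4 were listed at 2.81%, 1.86% and 1.75%. Wnt1 had 3, 1 and 0 loops, Wnt10b had 4, 1 and 0, and Wnt10a had 3, 0 and 0, so that the lens fiber list named none of them.

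**Figure D1:**
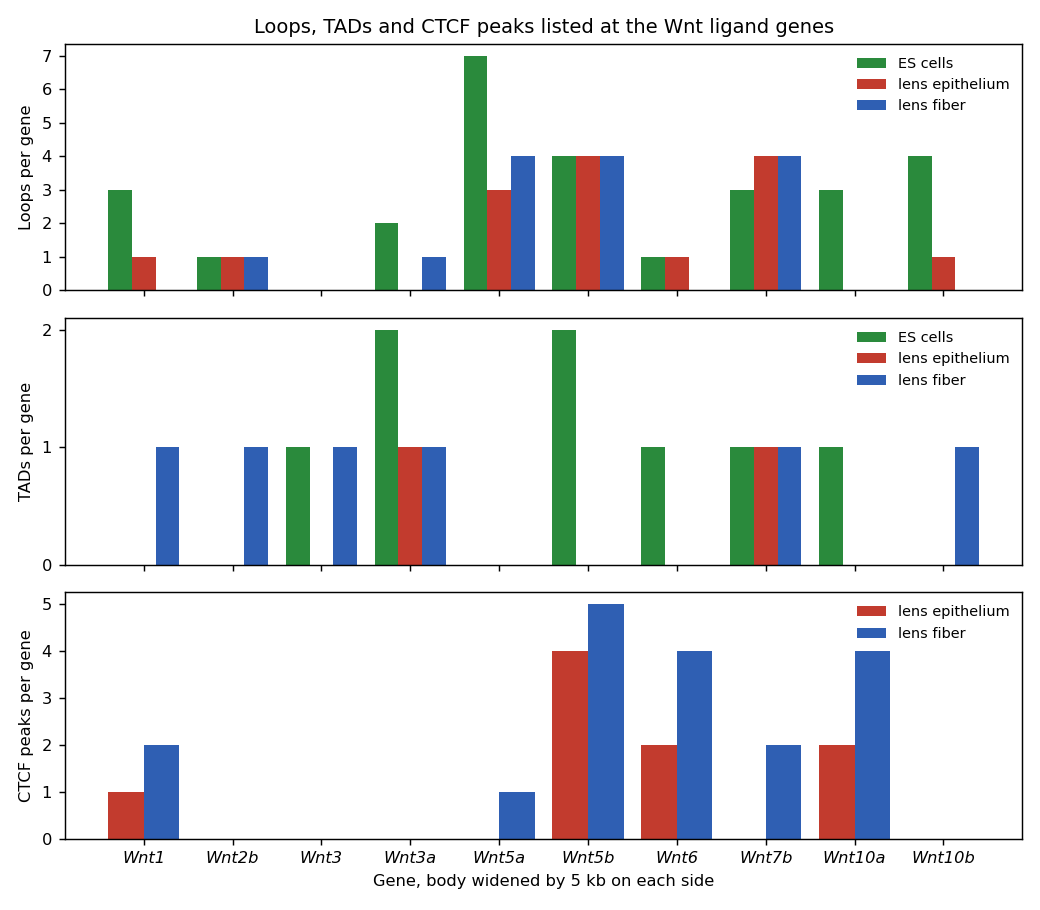
Number of loops (top), TADs (middle) and CTCF peaks (bottom) at each Wnt gene, its body widened by 5 kb, in ES cells (green), lens epithelium (red) and lens fiber cells (blue). Wnt5a reaches 7 loops in ES cells, Wnt3 has no loop in any list, and CTCF was not measured in ES cells.

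Loops over 1 Mb at Wnt genes were listed in ES cells and in neither lens list. In ES cells, 5 Wnt genes had such a loop (Wnt1, Wnt3a, Wnt5a, Wnt6 and Wnt10b), where 3.93% of all protein-coding genes had one. Wnt1 and Wnt10b were counted through the same 2 loops, so these genes are not independent. Among the 8 Wnt ligand genes outside the 10 examined, 1 had a loop over 1 Mb in ES cells. The share of these 10 therefore does not stand for all Wnt ligand genes. In the lens, 0 of 10 Wnt genes had one in either list, and the shares of all genes were 2.77% in the epithelium and 2.89% in lens fibers, so that a count of 0 among 10 genes is near the background. As a share of loops, 7 of 26 ES cell loops at Wnt genes exceeded 1 Mb (26.9%, Wilson interval 13.7 to 46.1), beside 7.81% of the whole ES cell list. The interval treats loops as independent, yet 3 of the 7 shared Wnt5a and 2 shared Wnt1 and Wnt10b, and 5 of the 7 had anchors 25 kb wide. Without anchors of that width, 2 long loops at 2 Wnt genes were left, where 1.17% of all genes had one. No loop of this length was among the 14 in either lens list, which allows a share of up to 21.4%, and the whole lens lists held 8.36% and 9.37%. The median size of the loops at Wnt genes was 415 kb in ES cells, 240 kb in the epithelium and 287.5 kb in lens fibers.

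The promoters of the genes at the foot of these long loops are shown here, because for Wnt1, Wnt3a, Wnt6 and Wnt10b the start site lay inside the looping anchor. The windows run from 250 bases before to 50 bases after the start site on the coding strand, 5′ to 3′, and come from RefSeq, GRCm38.p6. Capitals mark the 9 letters CCAGNNGGC, which also fit the last 9 letters of a 12-letter CTCF consensus, read on either strand. Windows were found for 7 of the 10 genes, and not for Wnt5a, Wnt7b and Wnt10a.
Wnt1, chr15:98789607-98789906, plus strand: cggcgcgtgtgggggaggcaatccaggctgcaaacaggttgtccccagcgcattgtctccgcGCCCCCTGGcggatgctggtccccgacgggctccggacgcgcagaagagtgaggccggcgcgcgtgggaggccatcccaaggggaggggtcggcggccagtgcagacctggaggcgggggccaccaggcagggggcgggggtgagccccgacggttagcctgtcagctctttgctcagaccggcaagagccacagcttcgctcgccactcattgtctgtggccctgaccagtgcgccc
Wnt3a, chr11:59290702-59291001, minus strand: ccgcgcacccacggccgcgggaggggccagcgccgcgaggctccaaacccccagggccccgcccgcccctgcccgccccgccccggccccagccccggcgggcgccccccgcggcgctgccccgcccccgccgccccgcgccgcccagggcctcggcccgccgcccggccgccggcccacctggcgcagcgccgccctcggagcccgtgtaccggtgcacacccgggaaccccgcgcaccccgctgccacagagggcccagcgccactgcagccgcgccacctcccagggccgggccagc
Wnt6, chr1:74771642-74771941, plus strand: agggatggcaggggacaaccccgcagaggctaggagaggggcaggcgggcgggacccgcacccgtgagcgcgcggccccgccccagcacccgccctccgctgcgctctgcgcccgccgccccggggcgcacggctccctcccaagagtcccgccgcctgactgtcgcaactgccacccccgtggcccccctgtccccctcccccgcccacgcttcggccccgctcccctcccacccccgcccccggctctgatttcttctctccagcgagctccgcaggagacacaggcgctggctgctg
Wnt10b, chr15:98778101-98778400, minus strand: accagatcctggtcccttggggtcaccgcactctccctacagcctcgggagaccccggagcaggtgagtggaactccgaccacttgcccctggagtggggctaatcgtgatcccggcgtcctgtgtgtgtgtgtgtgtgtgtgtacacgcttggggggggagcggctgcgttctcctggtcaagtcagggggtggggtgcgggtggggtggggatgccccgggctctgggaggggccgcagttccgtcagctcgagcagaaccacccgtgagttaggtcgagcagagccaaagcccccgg

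These windows were rich in G and C, with 70.7% in Wnt1, 86.3% in Wnt3a, 76.7% in Wnt6 and 66.3% in Wnt10b. Over the 9 windows of the 7 Wnt genes the median was 70.7% (range 53.0 to 86.3), against 56.3% over 21262 windows of protein-coding genes. Their median ratio of observed to expected CpG was 0.744, against 0.567. The whole consensus was found in none of the 9 Wnt windows and in 2.34% of all windows, both strands being searched. The 9 letters, chosen after the Wnt1 sequence had been seen, occurred in the Wnt1 window alone, on the minus strand, and in 9.94% of all windows. The presence of these letters is a description of the sequence, not of a bound site.

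Wnt5a (chr14:28504543-28527448) carried the longest of these loops. Its anchor in ES cells was joined to Fezf2, a transcription factor gene of the forebrain, over 16175 kb, with 18 observed contacts, 13.7 times the number expected from the surroundings (Poisson interval 8.11 to 21.6). The same anchor of Wnt5a was joined to Zfp503, a zinc finger co-repressor gene, over 6525 kb, with 32 contacts at 11.7 times the expected number (7.99 to 16.5). A loop of 9650 kb joined Fezf2 and Zfp503 to each other in ES cells, with 22 contacts and a ratio of 8.58 (5.38 to 12.997), so that all 3 pairs among these genes were listed. The long loop nearest to Wnt5a spanned 1215 kb to Cacna2d3, which encodes a calcium channel subunit, with 18 contacts and a ratio of 17.9 (10.6 to 28.3). This ratio was above that of 98.9% of the ES cell list, loops of all sizes included. High ratios were usual for long loops there: the median was 3.06 over the whole list and 7.51 over its loops longer than 1 Mb. At the Fezf2 anchor neither lens list had any loop, while at the Zfp503 anchor each lens list had 3.

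Within 1 Mb, loops from Wnt5a to Erc2, the gene of a synaptic scaffold protein, were listed in all 3 cell types with anchor midpoints at most 10 kb apart. In no pair of lists did both of their anchors overlap. It spanned 700 kb in ES cells, 690 kb in the epithelium and 700 kb in lens fibers, with 15, 39 and 41 contacts. The ratios of observed to expected contacts were 6.78 (3.80 to 11.2), 4.05 (2.88 to 5.54) and 5.02 (3.60 to 6.81), and all of these intervals overlap. The ES cell loop was called with anchors of 5 kb and the lens loops with anchors of 10 kb, and wider anchors collect more contacts. On the other side of the gene, both lens lists held a loop of 575 kb into Cacna2d3, with 119 contacts in the epithelium and 120 in lens fibers, which was not in the ES cell list. Longer loops into the same gene spanned 925 kb in the epithelium and 900 kb in lens fibers, but they did not count as shared because their anchors at Wnt5a lay too far apart. The arcs drawn around Wnt5a show a loop to Erc2 in each cell type and the different sites reached within Cacna2d3.

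**Figure D2:**
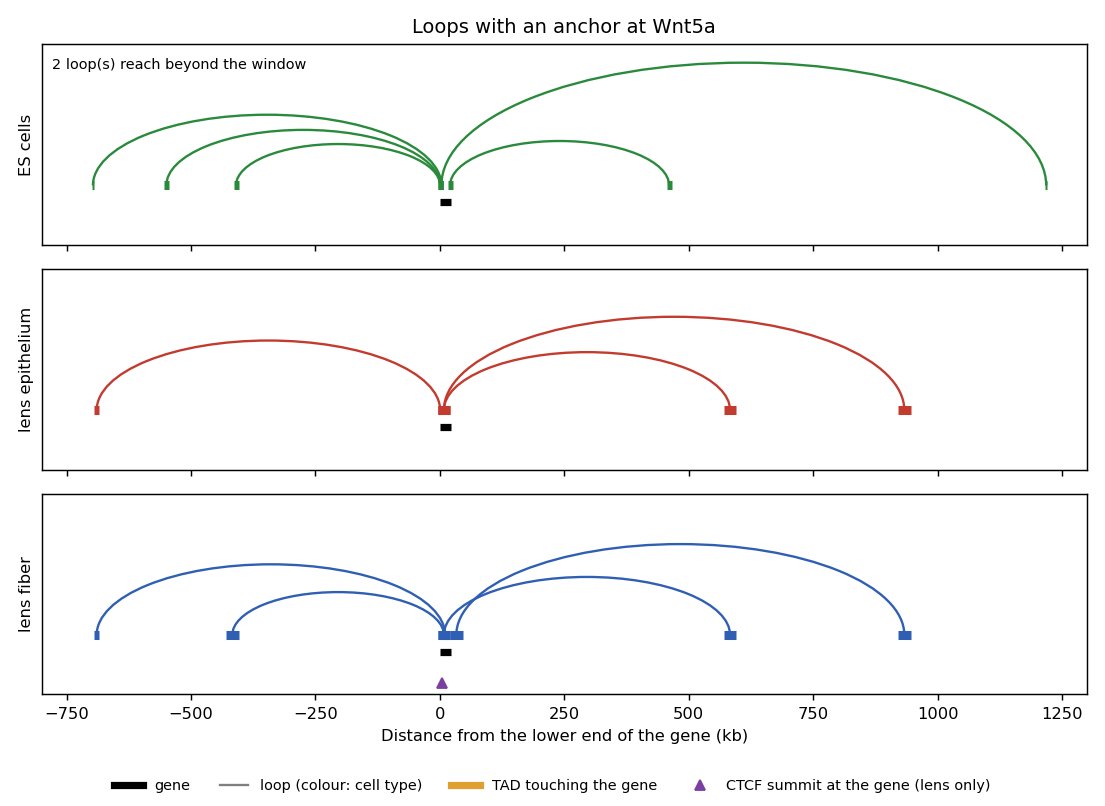
Loops with an anchor at Wnt5a as arcs, against the distance in kb from the lower end of the gene, in ES cells (top), lens epithelium (middle) and lens fiber cells (bottom). Thick coloured marks are anchors, the black bar is the gene and the triangle a CTCF summit. Loops of 700, 690 and 700 kb run to the left, and the ES cell loops of 6525 and 16175 kb reach beyond the window.

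Wnt6 (chr1:74754342-74785322) and Wnt10a (chr1:74792019-74804176) lie 6.70 kb apart but had no loop in common. Wnt6, a ligand gene of surface ectoderm, was joined in ES cells to Pax3, a transcription factor gene of neural crest and muscle, over 3420 kb. This loop had 29 contacts, 8.87 times the expected number (5.94 to 12.7), with anchors of 10 kb. The Pax3 anchor had 4 loops in ES cells, of which 3 exceeded 1 Mb, and none in either lens list. In lens epithelium the loop of Wnt6 spanned 110 kb on the side away from Pax3, with 42 contacts and a ratio of 3.09 (2.22 to 4.17), and in lens fiber cells the nearest anchor of any loop was 555 kb from the gene.

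Wnt10a, a ligand gene of tooth and hair development, had 3 short loops in ES cells. They reached Ihh, which encodes a hedgehog ligand, over 155 kb, Fev, a transcription factor gene of serotonergic neurons, over 80 kb, and Cdk5r2, an activator gene of the neuronal kinase Cdk5, over 55 kb. Their ratios were 3.69 (2.51 to 5.24), 3.27 (2.55 to 4.13) and 2.89 (2.32 to 3.56). In lens epithelium the nearest anchor lay 32.0 kb from the gene, and in lens fiber cells 536 kb.

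The genes of the canonical ligands Wnt1 (chr15:98789857-98793830) and Wnt10b (chr15:98770712-98778206) lie 11.7 kb apart and shared an anchor of 25 kb in 2 long ES cell loops. The longer spanned 4225 kb to an anchor over Hoxc4, Hoxc5 and Hoxc6, homeobox genes of body patterning, with 41 contacts and a ratio of 5.52 (3.96 to 7.49). The other spanned 3225 kb to Krt8, a keratin gene of simple epithelia, with 21 contacts and a ratio of 4.88 (3.02 to 7.46). An anchor of this width holds both Wnt genes, so these loops cannot be given to either of them. Narrower anchors separated the genes: Wnt1 was joined to Dhh, another hedgehog ligand gene, over 105 kb (63 contacts, ratio 4.12, 3.16 to 5.27), whereas Wnt10b was joined to Dnajc22 over 320 kb (43 contacts, ratio 5.60, 4.05 to 7.55) and to Col2a1, a cartilage collagen gene, over 770 kb (20 contacts, ratio 5.21, 3.18 to 8.05). In lens epithelium both genes had 1 loop in common, of 125 kb to an anchor over Ddx23 and Rnd1, with 179 contacts and a ratio of 2.32 (1.99 to 2.69). In lens fiber cells the nearest anchors were 96.2 kb from Wnt1 and 112 kb from Wnt10b.

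Wnt3a (chr11:59248036-59290751), a canonical ligand gene of the early embryo, was joined in ES cells to Hand1, a transcription factor gene of heart and placenta, over 1450 kb. The loop had 32 contacts and a ratio of 4.07 (2.78 to 5.75). A short loop ended at the Wnt3a start site in ES cells (55 kb, 83 contacts, ratio 3.51, 2.79 to 4.35) and in lens fiber cells (60 kb, 68 contacts, ratio 2.38, 1.85 to 3.02). It was not in the lens epithelium list, where the nearest anchor lay 14.2 kb away. Wnt3 (chr11:103774175-103818021), the closest relative of Wnt3a, had no loop in any list, and the nearest anchor was 9.17 kb from it in each of the 3. Its window is shared with the Wnt ligand gene Wnt9b, at which 1, 2 and 2 loops were listed.

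**Figure D3:**
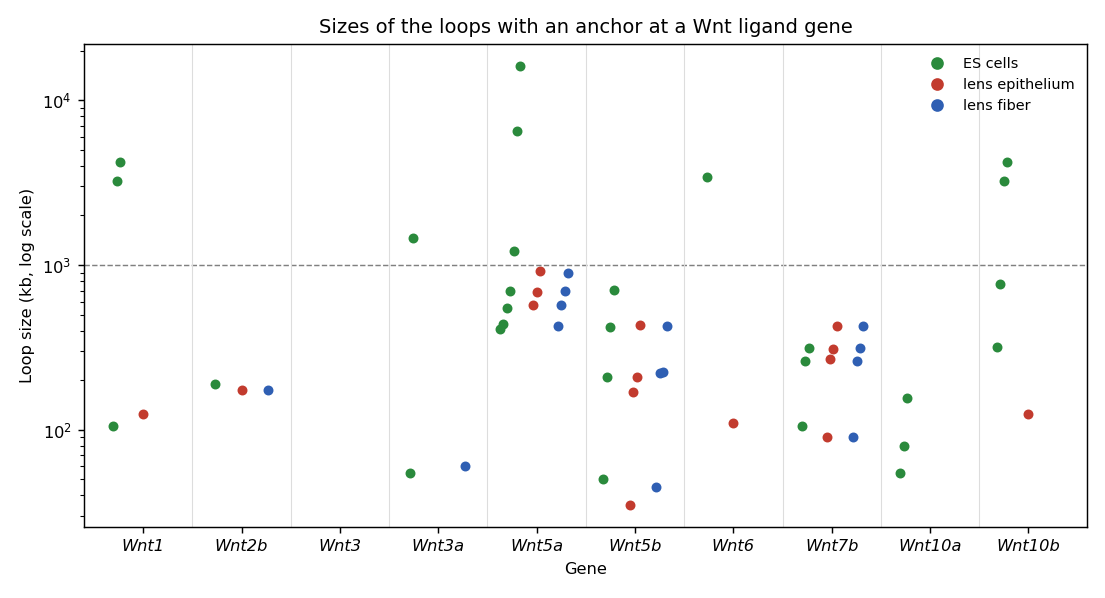
Size of each loop at a Wnt gene in kb on a log axis, by gene, for ES cells (green), lens epithelium (red) and lens fiber cells (blue). The dashed line marks 1 Mb. Every point above it is an ES cell loop, and the points of Wnt1 and Wnt10b at 3225 and 4225 kb are the same loops.

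Wnt2b, Wnt5b and Wnt7b had loops in all 3 lists and none over 1 Mb. Wnt7b (chr15:85535437-85581821), a canonical ligand gene, was joined to Fbln1, which encodes an extracellular matrix protein, over 315 kb in ES cells, 310 kb in the epithelium and 315 kb in lens fibers. Contacts numbered 32, 33 and 28, all with anchors of 5 kb, and the ratios were 4.005 (2.74 to 5.65), 4.88 (3.36 to 6.85) and 4.31 (2.86 to 6.22). These values differed by less than their counting error. The ES cell and lens fiber loops had identical anchors, and the epithelium loop overlapped neither of them at both anchors. A loop of 425 kb was shared by both lens lists, with 76 contacts in the epithelium and 101 in lens fibers. Its ratios were 2.31 (1.82 to 2.90) and 2.25 (1.83 to 2.74), and it was not in the ES cell list. The shortest loop of Wnt7b in ES cells, of 105 kb, had a ratio of 5.36 (4.26 to 6.67), against 2.93 (2.19 to 3.84) for its counterpart of 90 kb in lens epithelium. These intervals do not overlap, the loops were called with anchors of 5 and 10 kb, and their anchors did not both overlap.

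**Figure D4:**
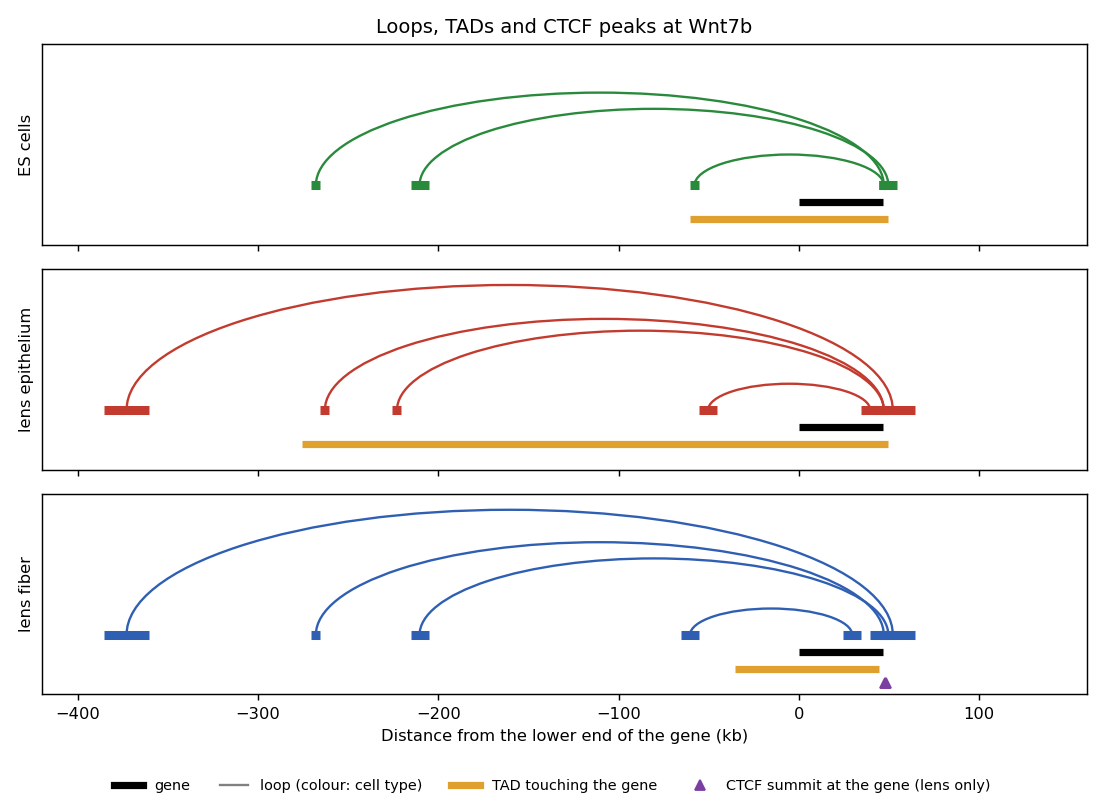
Loops (arcs), TADs touching the gene (orange bars) and CTCF summits (triangles) at Wnt7b (black bar), against the distance in kb from the lower end of the gene, in ES cells (top), the epithelium (middle) and lens fibers (bottom). Loops of 315, 310 and 315 kb end at the right side of the gene in each cell type, and both CTCF summits of the lens fiber list, drawn as nearly 1 symbol, lie at that anchor.

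Wnt5b (chr6:119432531-119544824) had a loop within its own window in all 3 lists. It spanned 50 kb in ES cells, 35 kb in the epithelium and 45 kb in lens fibers, with ratios of 2.55 (1.90 to 3.35), 2.79 (1.85 to 4.03) and 3.52 (2.44 to 4.92). In lens epithelium its false discovery rate against the surroundings was 7.51e-02, the highest among the loops at Wnt genes. In no pair of lists did both anchors of this loop overlap. A second loop, with midpoints at most 10 kb apart, ran to Rad52, a DNA repair gene, over 420, 430 and 425 kb. Both anchors of the lens fiber loop overlapped those in ES cells and those in the epithelium, but the latter pair did not overlap each other at both ends. Its ratio was 3.06 (2.30 to 3.98) in ES cells, 5.13 (3.68 to 6.96) in the epithelium and 2.74 (2.31 to 3.22) in lens fibers. The interval in lens epithelium lay above that in lens fiber cells, where the anchors were 25 kb wide instead of 10 kb. Loops to Erc1 were listed in lens epithelium (210 and 170 kb) and in lens fiber cells (220 kb) and not in ES cells. A loop to Ninj2 over 710 kb was listed in ES cells alone. Loops to Dcp1b spanned 210 kb in ES cells and 225 kb in lens fiber cells, and none was listed in lens epithelium. Both anchors of the Dcp1b loops overlapped, but their midpoints lay too far apart to count as shared.

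Wnt2b (chr3:104944805-104961709), a ligand gene of the eye margin and other tissues, had 1 loop in each list. It spanned 190 kb in ES cells and 175 kb in both lens lists, with ratios of 2.64 (2.05 to 3.36), 2.12 (1.80 to 2.47) and 2.00 (1.74 to 2.30). The anchor in ES cells was 10 kb wide and overlapped Tafa3, and those in the lens lists were 25 kb wide and overlapped Tafa3 and 3 more genes. The lens loops had identical anchors. Their midpoints lay too far from those in ES cells to count as shared, although both anchors overlapped.

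**Figure D5:**
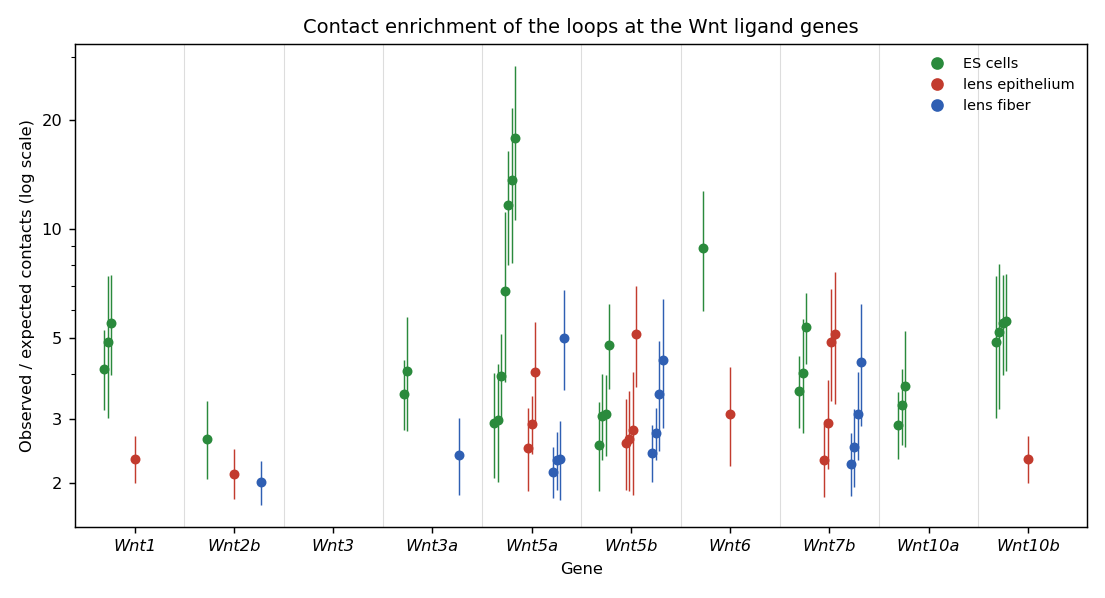
Observed over expected contacts of each loop at a Wnt gene, on a log axis, with the Poisson 95% interval of the observed count as a bar, for ES cells (green), lens epithelium (red) and lens fiber cells (blue). The 3 highest points are the ES cell loops of Wnt5a at 17.9, 13.7 and 11.7, and all points of the lens lists lie at or below 5.14.

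By anchor midpoints, the share of lens epithelium loops at Wnt genes with a counterpart in lens fiber cells was near that of the whole list. A loop was called shared when a loop of another list had both anchor midpoints at most 10 kb from its own. Of the 14 lens epithelium loops, 9 had a match in lens fibers (64.3%, 38.8 to 83.7; whole list 55.5%) and 5 in ES cells (35.7%, 16.3 to 61.2; whole list 37.9%). Where both anchors had to overlap, 28.6% and 7.14% had a match. Whole-list shares were not computed under that rule, so these 2 values have no background beside them. In lens fiber cells 2 of 14 loops were in no other list (14.3%, 4.01 to 39.9; whole list 34.4%), and in ES cells 18 of 26 were (69.2%, 50.01 to 83.5; whole list 57.0%). Each whole-list share given here lies inside the interval of the Wnt loops. The ratios of shared loops had overlapping Poisson intervals in 4 of 5 pairs of ES cells and lens epithelium, in 6 of 7 pairs of ES cells and lens fiber cells and in 8 of 9 pairs of both lens cell types.

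TADs touched 6 Wnt genes in ES cells, 2 in the epithelium and 6 in lens fibers, where 42.9%, 22.5% and 31.3% of all genes were touched. The lists differed in length, with 3604, 1796 and 2641 TADs, and in the sizes they held, since 320 ES cell TADs, 0 in the epithelium and 3 in lens fibers were between 200 and 300 kb. Wnt3a and Wnt7b were touched in all 3 lists and Wnt5a in none. A TAD with its borders 23.035 kb below and 4.25 kb above Wnt3a was listed with the same ends, 70 kb apart, in ES cells and lens epithelium, and lens fiber cells had one of 75 kb. Around Wnt3, which had no loop, TADs of 170 kb in ES cells and 150 kb in lens fiber cells held the gene.

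Wnt7b lay at the upper border of its TAD in each cell type. The TAD spanned 110 kb in ES cells and 325 kb in lens epithelium, with the same upper border 3.18 kb beyond the gene, and 80 kb in lens fiber cells, with a border just inside the gene. The lower border of the epithelium TAD lay 275 kb from the gene, near the Fbln1 end of its loop. In ES cells, Wnt6 held a TAD border within its body and Wnt10a lay inside the same TAD of 130 kb. Borders of 2 ES cell TADs lay inside Wnt5b, which no lens TAD touched. A TAD of 145 kb held Wnt1 and Wnt10b in lens fiber cells, where neither gene had a loop.

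CTCF peaks were listed at 4 Wnt genes in lens epithelium (Wnt1, Wnt5b, Wnt6 and Wnt10a) and at 6 in lens fiber cells, which added Wnt5a and Wnt7b. The shares of all protein-coding genes were 30.9% and 45.3%, and 17.5% of all genes had a peak in lens fiber cells and none in lens epithelium, close to the 2 of 10 Wnt genes. There were 8 peaks at Wnt genes in the epithelium and 17 in lens fibers, a ratio of 2.13, while the whole lists, of 16433 and 23868 peaks, had a ratio of 1.45. In a fiber list cut to the length of the epithelium list, 11 peaks at Wnt genes were left, a ratio of 1.38. Both whole lists then held equally many peaks, so that 1.38 is not to be set against 1.45. Of these peaks 7 overlapped in both lists, 1 was in lens epithelium alone and 10 were in lens fiber cells alone. The overlapping peaks were 87.5% of those at Wnt genes in the epithelium (52.9 to 97.8; whole list 72.8%) and 41.2% in lens fibers (21.6 to 64.0; whole list 50.1%), and both whole-list shares lie inside these intervals.

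The strongest peak lay in Wnt5b, with a fold enrichment over background of 9.74 in the epithelium and 9.38 in lens fibers and a −log10 q of 22.1 and 19.2. It was in no anchor of a Wnt5b loop. Wnt5b also had the weakest of these peaks, in lens fiber cells, with a fold enrichment of 3.36 and a −log10 q of 2.00. Wnt6 and Wnt10a had a peak between them in both lens cell types, 5.37-fold enriched in the epithelium and 6.07-fold in lens fibers. At Wnt5a and Wnt7b, peaks were listed in lens fiber cells alone, although both genes had loops in both lens cell types. The peak in Wnt5a had a fold enrichment of 6.61 and lay in anchors of Wnt loops in all 3 lists, as did both peaks beside Wnt7b (5.13-fold and 5.84-fold).

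At Wnt1, a peak was listed in both lens cell types, 3897 bases before the start site in lens epithelium, with a fold enrichment of 7.52 in the epithelium and 4.40 in lens fibers. A second peak, in lens fiber cells alone, had its summit 162 bases before the start site, a fold enrichment of 4.20 and a −log10 q of 3.90, above only 8.42% of its list. It is the single CTCF peak in a printed promoter window, and it covers the capital letters of the Wnt1 sequence, whose middle lies 22 bases from the summit. Both peaks fell in the 25 kb anchor of the lens epithelium loop shared with Wnt10b, whereas the lens fiber list, which held the promoter peak, had no loop there.

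Peaks were also set against both ends of each loop. With the peaks of the same cell type, 0 of 14 loops had CTCF at both anchors in lens epithelium, which allows a share of up to 21.4%, and 5 of 14 did in lens fiber cells (35.7%, 16.3 to 61.2). The whole lists held 15.7% and 39.1%, below that limit and inside that interval. At neither anchor was there a peak in 10 of 14 loops in lens epithelium (71.4%, 45.4 to 88.3; whole list 39.5%) and in 1 of 14 in lens fiber cells (7.14%, 1.27 to 31.5; whole list 16.6%). The interval in the epithelium lies above its whole-list share, on 14 loops that partly share anchors. Set against the peaks of lens fiber cells, where the whole-list share lies inside the interval, 2 of the same 14 loops had none at either anchor (14.3%, 4.01 to 39.9; whole list 18.5%) and 3 had CTCF at both (21.4%, 7.57 to 47.6; whole list 38.0%). The cell type and the length of the peak list change together here and cannot be told apart. The 5 bound loops in lens fiber cells were at Wnt5a (2), Wnt7b (2) and Wnt5b (1). With anchors widened by 5 kb, CTCF lay at both anchors of 64.3% of the Wnt loops in lens fiber cells, and of 57.3% in the whole list. In lens epithelium the same widening left the Wnt loops at 0 of 14, while the whole list rose to 24.997%. That share lies above the limit of 21.4%, so the epithelium count was compatible with its whole list only without the widening.

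Among 65 other genes of the Wnt pathway, 34 had a loop in ES cells, 40 in the epithelium and 37 in lens fibers, and 3, 2 and 1 had a loop over 1 Mb. As shares these were 52.3%, 61.5% and 56.9% with a loop, where 36.9%, 35.8% and 34.1% of all protein-coding genes had one, and 4.62%, 3.08% and 1.54% with a long loop, where 3.93%, 2.77% and 2.89% did. TADs touched 42, 24 and 47 of them, which is 64.6%, 36.9% and 72.3% against 42.9%, 22.5% and 31.3% of all genes. CTCF peaks were listed at 24 in the epithelium (36.9%, all genes 30.9%) and at 38 in lens fibers (58.5%, all genes 45.3%). Of the 8 other Wnt ligand genes, 6, 6 and 5 had a loop. Wnt11 had 3 in ES cells, among them 1 of 19325 kb with 22 contacts and a ratio of 6.07 (3.81 to 9.20), and no lens loop over 350 kb. Of the 10 Frizzled genes, the receptors, 4, 6 and 4 had a loop, with at most 3, at Fzd5 in ES cells. Of the 8 genes Lrp5, Lrp6, Ror1, Ror2, Ryk, Ptk7, Kremen1 and Kremen2, 4, 4 and 5 did. Ror1, a receptor of Wnt5a, had 2, 4 and 4 loops. Of the 10 secreted inhibitors 4, 5 and 5 did, and Dkk1, which blocks Lrp5 and Lrp6, had 4 in ES cells, up to 1220 kb, and 1 in each lens list. Of the 3 genes Porcn, Wls and Notum 1, 0 and 0 had a loop. Of the 9 genes Rspo1 to Rspo4, Lgr4 to Lgr6, Znrf3 and Rnf43, 7, 7 and 7 had a loop. Of the 17 genes of the cytoplasm and nucleus 8, 12 and 11 had a loop. Among them Lef1, a nuclear partner of β-catenin, had 4 loops in ES cells and 0 in both lens lists, the longest spanning 31875 kb to Tbx15, with 14 contacts and a ratio of 12.97 (7.09 to 21.8).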

How the data were processed

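Chromatin loops and TADs of 3 cell types and CTCF peaks of both lens cell types were taken as deposited, in mm10 coordinates per the labels (GRCm38), counted here from 1. The authors aligned the Hi-C reads with BWA, kept those of high mapping quality, merged both replicates, and called loops with HiCCUPS (juicer_tools 2.13.06) and TADs with Arrowhead. The observed count of contacts in the deposited loop lists is raw, and the authors' run of HiCCUPS gave the expected counts and the FDR, a q-value. The authors called CTCF peaks with MACS2, and the deposited lists give each peak's score, fold enrichment and −log10 p-value and q-value. The study's methods give 2 biological replicates for the ChIP-seq, the labels give 1 sample per peak list, and how replicates entered the lists is not given in the sources used here.

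Gene positions and promoters came from RefSeq tables of GRCm38.p6. Loop size is the distance between anchor midpoints, and expected counts are those of the donut-shaped surroundings. Python 3.11.15, numpy 2.4.6, pandas 2.3.3, scipy 1.17.1 and matplotlib 3.10.9 were used, and the computations were tested on simulated data. Shares have Wilson intervals, contacts exact Poisson intervals, and a count of 0 was read as up to 3. The members and lists were chosen with earlier results of these data known. Named are the 10 genes, Wnt neighbours that share a window, genes overlapping the other anchor of a loop, and the pathway genes with most loops in their list. Some of the latter, and some pathway genes with long loops, are not named here. Alternatives changed the gene window, anchor width, FDR, length limit, tolerance, TAD size and peak threshold.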

Additional observations from a re-analysis of the deposited data

How the results depend on the processing

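No paired analysis was possible because both replicates of each cell type had been merged into 1 list, and for the same reason no replicate could be left out. Of 95 alternative values of 27 results, 71 stayed within the limits and 24 moved. A count had to stay within 1.5 times its value and a share inside its own 95% Wilson interval, so that CTCF at both anchors of epithelium loops, 0 in the text and 21.4% with the fiber peaks, counts as within the limits, the interval reaching 21.5%. With anchors of 10 kb or less, ES cells kept 2 loops over 1 Mb at 2 Wnt genes (Wnt5a to Cacna2d3 and Wnt6 to Pax3), where 1.17% of all genes had one, lens epithelium had 9 loops at 4 Wnt genes and lens fiber cells 7 loops. With a limit of 500 kb, 11 ES cell loops were long, and 3 loops at 1 gene in each lens list. When both anchors had to overlap, ES cells shared 3.85% with lens epithelium, lens epithelium 7.14% with ES cells and 28.6% with lens fiber cells, and lens fiber cells 28.6% with lens epithelium. TADs of at least 200 kb touched 1 Wnt gene each in ES cells and the epithelium and 0 in lens fibers. In the gene bodies alone, lens epithelium had 4 peaks at 2 genes and lens fiber cells 9 peaks, a window widened by 25 kb gave 27 in lens fiber cells, and a fiber list cut to the length of the epithelium list gave 11. Shares of all genes or whole lists were not computed for the limits of 500 and 200 kb, the overlap rule or these peak windows. Those counts and shares therefore cannot be read as results about the Wnt genes. CTCF at both anchors of lens fiber loops rose to 64.3% with anchors widened by 5 kb and fell to 7.14% with the epithelium peaks. The whole fiber list went the same way, from 39.1% to 57.3% and to 16.9%. The causes were not tested, beyond the smaller lists that these limits leave. A long loop rests on 18 to 41 contacts, which leaves wide intervals, and loops that pass the caller in a single list may hold contacts in the others. The count of genes with a long loop in the gene bodies alone, and the 9-letter motif, were chosen after seeing the data.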
